A study of Homo sapiens with 8 samples.

Results

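The G2/M and mitosis genes are 35 named genes whose products act between the end of DNA replication and the separation of the daughter cells. They were taken by symbol from a count table of 34415 gene symbols, and all 35 were among the 13572 genes with enough counts to be tested. By role they are 5 cyclin, phosphatase and transcription factor genes, 5 mitotic kinases, 6 genes of the spindle checkpoint, the chromosomal passenger complex and the anaphase-promoting complex (APC/C), 4 kinetochore and centromere genes, 5 kinesin motors, 8 genes of the spindle, midzone and cleavage furrow, and 2 chromosome genes. RNA came from 8 cultures of HaCaT, human skin keratinocytes that became immortal spontaneously in culture, at passages 21 to 33, kept in a basal medium with 5.5 mM glucose and then in 35 mM glucose for 96 h. For 48 h the cultures carried small interfering RNA (siRNA) against ETV4 (siETV4, 4 cultures) or negative-control siRNA (siNC, 4 cultures), and the submitters call the 4 cultures of a group independent biological replicates. ETV4 is an ETS-family transcription factor, and the series title names keratinocyte proliferation in high glucose as its subject. The sources used here give neither the siRNA sequences nor the passage of each culture. All 8 cultures were of the same line and in high glucose, and cultures at other glucose levels were not analysed here, so the values bear on the siRNA within high glucose.

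Cells enter mitosis when cyclin-dependent kinase CDK1, bound to B-type cyclins, is freed of inhibitory phosphates by CDC25 phosphatases. The spindle checkpoint then holds back the APC/C, a ubiquitin ligase, until every kinetochore is attached to microtubules, after which cyclin B and securin are destroyed and the chromosomes part. Transcripts of most of these genes accumulate together in G2 and mitosis. That timing is set at promoters by the MuvB complex with B-MYB and FOXM1, which acts at cell cycle homology regions (CHR, with the core TTTGAA or TTCGAA), and by NF-Y, which binds CCAAT boxes. In the epidermis these genes mark the dividing cells of the basal layer.

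The promoter sequences of 6 of the genes are shown for these motifs. They are the 6 most abundant genes by FPKM (a level per length of gene and per library size) among those with a CHR core before the start. Each run is the 200 bases directly before the RefSeq start site on GRCh38.p14, printed 5′ to 3′ along the gene's strand. Capitals mark 3 motifs on either strand. They are CCAAT, which reads ATTGG from the other strand, the CHR core TTTGAA, which then reads TTCAAA, and the core of ETS factor sites, CCGGAA, which then reads TTCCGG. The runs lie at chr1:43358781-43358980 (plus strand, CDC20), chr16:23678689-23678888 (plus, PLK1), chr15:59104946-59105145 (plus, CCNB2), chr17:40417897-40418096 (minus, TOP2A), chr7:36389662-36389861 (plus, ANLN) and chr15:90994536-90994735 (minus, PRC1).
CDC20: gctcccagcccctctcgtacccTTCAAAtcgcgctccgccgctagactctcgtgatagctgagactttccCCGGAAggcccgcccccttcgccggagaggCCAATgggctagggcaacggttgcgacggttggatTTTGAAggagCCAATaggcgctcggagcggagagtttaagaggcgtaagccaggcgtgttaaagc
PLK1: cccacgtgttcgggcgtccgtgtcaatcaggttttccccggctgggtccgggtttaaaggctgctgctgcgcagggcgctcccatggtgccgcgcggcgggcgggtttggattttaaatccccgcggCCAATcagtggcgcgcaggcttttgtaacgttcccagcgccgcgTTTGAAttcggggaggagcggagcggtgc
CCNB2: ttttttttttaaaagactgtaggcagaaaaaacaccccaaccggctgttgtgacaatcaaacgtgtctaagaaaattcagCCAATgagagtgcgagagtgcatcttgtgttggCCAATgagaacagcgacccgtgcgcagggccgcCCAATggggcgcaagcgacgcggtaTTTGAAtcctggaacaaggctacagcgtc
TOP2A: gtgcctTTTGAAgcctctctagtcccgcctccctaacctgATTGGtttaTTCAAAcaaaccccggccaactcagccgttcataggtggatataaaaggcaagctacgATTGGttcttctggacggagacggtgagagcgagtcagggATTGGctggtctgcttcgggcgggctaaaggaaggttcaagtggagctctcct
ANLN: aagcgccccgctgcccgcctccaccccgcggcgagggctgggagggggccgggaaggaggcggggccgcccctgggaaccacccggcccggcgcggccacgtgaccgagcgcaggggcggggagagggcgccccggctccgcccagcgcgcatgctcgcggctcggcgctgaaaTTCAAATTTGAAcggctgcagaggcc
PRC1: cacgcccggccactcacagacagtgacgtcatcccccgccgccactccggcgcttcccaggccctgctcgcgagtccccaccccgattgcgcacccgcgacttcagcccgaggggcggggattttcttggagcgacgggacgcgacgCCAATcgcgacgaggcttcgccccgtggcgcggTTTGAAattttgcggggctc

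CDC20 held CCAAT boxes on both sides of a TTTGAA and, of the 6, was the only run with a CCGGAA. CCNB2 held 3 CCAAT boxes before its TTTGAA, and TOP2A held 3 in the opposite orientation. ANLN held no CCAAT box in this window, and its TTCAAA and TTTGAA abut. In the 250 bases before the start, on either strand, CCAAT was present in 23 of the 29 genes that the RefSeq table held (79.3%), against 33% of 27305 promoters in the table. TTTGAA was present in 16 (55.2%), against 13.6% of all promoters, and TTCGAA in 0, against 1.2% of all. A CHR core together with a CCAAT was found in 14 (48.3%), against 5.24% of all promoters. CCGGAA was found in 7 (24.1%: CCNB1, AURKB, CDC20, KIF11, KIF14, KIF23 and DLGAP5), against 14.8% of all. The promoters compared with were not limited to genes with counts in these libraries, whereas all 35 genes had enough counts to be tested. These are matches of letters and not measured binding. FOXM1, AURKA, TTK, UBE2C, BIRC5 and TPX2 had no entry in the table.

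Libraries held between 35057643 and 41657753 counts. ETV4 measured 3.10, 2.71, 1.83 and 2.80 CPM (counts scaled to a common library size) in the siETV4 libraries, against 32.0, 29.7, 31.1 and 19.8 CPM in the siNC libraries. The target was thus lower in every siETV4 library than in any siNC library, with a log2 fold change of -3.43 (SE 0.21, edgeR adjusted p = 4.64e-05). All 8 keratinocyte markers were over 1 FPKM, and KRT5 and KRT14 averaged 519 and 464 FPKM. Summed keratinocyte markers ranged from 1270 to 1420 FPKM in siETV4 and from 1294 to 1487 FPKM in siNC. No fibroblast marker of 7 and no melanocyte marker of 6 exceeded 1 FPKM, with COL1A2, LUM, MLANA and TYR at 0 in all libraries. Of 4 endothelial and 5 leukocyte markers, CDH5 and CD68 exceeded 1 FPKM, and PTPRC was at 0 in all libraries. The sums were 3.78 to 5.28 FPKM in siETV4 against 3.31 to 4.23 FPKM in siNC for the endothelial list, and 12.7 to 14.6 FPKM in siETV4 against 9.71 to 13.8 FPKM in siNC for the leukocyte list.

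The libraries of 1 group also differed among themselves. A library's deviation from the mean of all 8 (log2 CPM) was related across 12971 genes to the GC content of the transcript. Spearman's rho of that relation was -0.63, 0.20, -0.56 and 0.02 in siETV4 replicates 1 to 4 and 0.55, 0.52, 0.62 and -0.58 in siNC replicates 1 to 4. Thus siNC replicate 4 stood against the other 3 siNC libraries, on the side of siETV4 replicates 1 and 3. The other 3 siNC libraries lay above all siETV4 libraries in this measure, so the trend was also partly aligned with the groups. Counts of calls are given with siNC replicate 4, without it, and with the trends on GC content and length removed.

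With all 8 libraries, none of the 35 genes passed an adjusted p of 0.05 in edgeR's quasi-likelihood test (p-values adjusted by Benjamini and Hochberg's method over all genes tested). Over all genes tested, 32 of 13572 passed (0.236%). The lowest adjusted p among the 35 was 0.355, for CDC20. Of the 35, 17 had a positive and 18 a negative log2 fold change (siETV4 over siNC), with a median of -0.00065 against -0.01 over all genes tested. The values ran from -0.62 (KIF14) to 0.36 (CDK1), and the 95% intervals of the 35 together reached from -1.28 (KIF14) to 0.81 (CKAP2L). At an unadjusted p under 0.05 there were 4, 1 higher (CDK1) and 3 lower (CDC20, FOXM1 and PLK1). Over all genes tested the share was 12.6%, with 5.8% higher and 6.79% lower. Without siNC replicate 4 there were 20, 15 higher and 5 lower, against 35% of all genes (21% higher and 14% lower). With the trends on GC content and length removed there were 6, 0 higher and 6 lower, against 15.8% of all genes (7.69% higher and 8.09% lower), so the balance of directions turned with the setting. No gene of the 35 had groups that did not overlap, against 6.55% of all genes tested. DESeq2 also called 0 of the 35 (1.22% of genes overall). In these bulk libraries, a different share of cells in G2 or mitosis and a different amount of these RNAs per dividing cell cannot be told apart.

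As levels per length, the genes spanned a wide range. CDC20, the APC/C activator, was the most abundant at a mean of 342 FPKM over the 8 libraries, ahead of UBE2C at 198, CCNB1 at 189.6, TPX2 at 147 and PLK1 at 127 FPKM. The motor KIF14 was the least abundant at 2.60 FPKM. Of the 35, 8 exceeded 100 FPKM, and 5 (KIF14, CENPE, ASPM, CKAP2L and CENPF) stayed under 10 FPKM. The 35 genes together took 0.567% to 0.670% of the counts in siETV4 libraries and 0.564% to 0.745% in siNC libraries, with the highest share in siNC replicate 4.

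**Figure D1:**
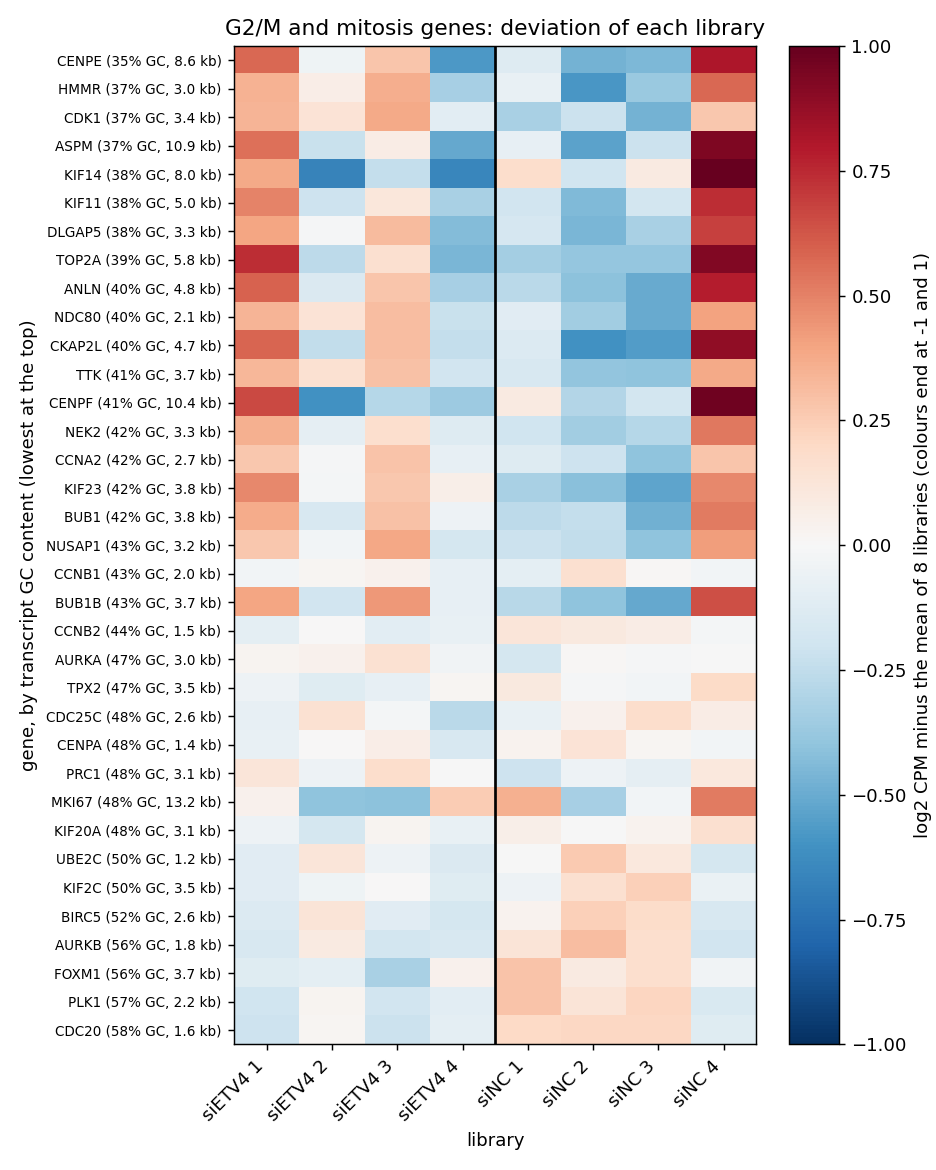
Deviation of log2 CPM from the mean of all 8 libraries for the 35 genes, ordered by transcript GC content (percent, with length in kb), with siETV4 libraries left of the line and siNC libraries right of it. Red is above and blue below the mean. The low-GC genes at the top are red in siETV4 replicate 1 and siNC replicate 4, where the 9 long ones have median deviations of 0.57 and 0.89, and the high-GC genes at the bottom are mostly the other way round.

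Among the cyclins and their regulators, CCNB1, the B-type cyclin that activates CDK1, was the most abundant. It measured 376, 389, 397 and 364 CPM in siETV4 libraries, against 359, 430.1, 388 and 376 CPM in siNC libraries. The siETV4 values lay inside the siNC range, with a log2 fold change of -0.03 (SE 0.08, 95% interval -0.21 to 0.16, edgeR adjusted p = 0.905). FOXM1, the transcription factor that switches on many of the other genes, measured 274, 279, 239 and 307 CPM in siETV4 libraries, against 364, 318, 335 and 292 CPM in siNC libraries. Only siETV4 replicate 4 reached the siNC range, and it passed only siNC replicate 4. FOXM1 had a log2 fold change of -0.25 (SE 0.10, 95% interval -0.47 to -0.03, edgeR adjusted p = 0.362). CCNB2, another B-type cyclin, had 169 ± 5.90 CPM in siETV4 and 185 ± 7.82 CPM in siNC (SD, n = 4 each). CCNA2, the cyclin of S phase and G2, had 168 ± 21.7 CPM in siETV4 and 144 ± 30.2 CPM in siNC. CDC25C, a phosphatase that activates CDK1, had 33.2 ± 3.96 CPM in siETV4 and 35.7 ± 2.47 CPM in siNC. None of these 3 passed the threshold (edgeR adjusted p from 0.480 to 0.711).

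The kinases pointed in opposite directions. CDK1, the kinase that drives mitotic entry, measured 199, 172, 204 and 146 CPM in siETV4 libraries, against 125, 136, 113 and 189 CPM in siNC libraries. Every siETV4 library was above siNC replicates 1 to 3, while siNC replicate 4 lay within the siETV4 range. The log2 fold change of CDK1 was 0.36 (SE 0.16, edgeR adjusted p = 0.394). PLK1, the polo-like kinase of centrosomes, kinetochores and cytokinesis, measured 237, 277, 238 and 253 CPM in siETV4 libraries, against 332, 298, 315 and 245 CPM in siNC libraries. Here every siETV4 library was below siNC replicates 1 to 3, and siNC replicate 4 again lay within the siETV4 range. PLK1 had a log2 fold change of -0.24 (SE 0.11, 95% interval -0.47 to -0.01, edgeR adjusted p = 0.388). AURKB, the kinase of the chromosomal passenger complex, had 179.6 ± 16.8 CPM in siETV4 and 208 ± 29.2 CPM in siNC. AURKA, the spindle pole kinase, had 196 ± 10.5 CPM in siETV4 and 184 ± 10.6 CPM in siNC. NEK2, a kinase of centrosome separation, had 40.1 ± 6.40 CPM in siETV4 and 36.9 ± 11.7 CPM in siNC. Their edgeR adjusted p ranged from 0.459 to 0.808.

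In the checkpoint group, CDC20 behaved like PLK1. It measured 486, 570.0, 483 and 524 CPM in siETV4 libraries, against 644, 649, 648 and 517 CPM in siNC libraries. The first 3 siNC libraries were close together and above all siETV4 libraries, and siNC replicate 4 was within the siETV4 range. CDC20 had a log2 fold change of -0.25 (SE 0.10, 95% interval -0.47 to -0.03, edgeR adjusted p = 0.355). TTK, the kinase that starts checkpoint signalling, measured 72.8, 64.1, 70.7 and 50.6 CPM in siETV4 libraries, against 51.9, 44.0, 43.7 and 75.1 CPM in siNC libraries. Its highest value was in siNC replicate 4 and its lowest in siNC replicate 3, so that the siNC group enclosed the siETV4 group (log2 fold change 0.27, SE 0.18, edgeR adjusted p = 0.542). The checkpoint genes BUB1 and BUB1B had log2 fold changes of 0.19 (SE 0.20) and 0.22 (SE 0.25). UBE2C, the ubiquitin-conjugating enzyme of the APC/C, and BIRC5 (survivin), a passenger complex subunit, had log2 fold changes of -0.10 (SE 0.11) and -0.15 (SE 0.11). These 4 had edgeR adjusted p from 0.560 to 0.706.

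Of the kinetochore and centromere genes, CENPA, the histone H3 variant that marks centromeres, was the most abundant per length. It measured 48.2, 50.8, 53.0 and 45.4 CPM in siETV4 libraries, against 52.1, 55.8, 51.5 and 49.9 CPM in siNC libraries, and the groups overlapped (log2 fold change -0.08, SE 0.10, edgeR adjusted p = 0.711). CENPF, a large protein of the outer kinetochore, measured 134, 55.5, 69.6 and 65.7 CPM in siETV4 libraries, against 90.2, 69.1, 74.3 and 166 CPM in siNC libraries. In each group a different library was far above the rest, siETV4 replicate 1 and siNC replicate 4. The log2 fold change was -0.30 with an SE of 0.31 (edgeR adjusted p = 0.688), so a change of this size was not detectable against the spread. CENPE, a kinetochore motor, and NDC80, the microtubule-binding subunit of the outer kinetochore, had log2 fold changes of 0.07 (SE 0.30) and 0.25 (SE 0.19), with edgeR adjusted p of 0.927 and 0.585.

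The motors held the gene with the lowest fold change of the 35. KIF14, a kinesin of cytokinesis, measured 24.9, 11.99, 16.2 and 12.2 CPM in siETV4 libraries, against 21.5, 16.6, 20.4 and 41.5 CPM in siNC libraries. In 3 siETV4 libraries KIF14 was below every siNC library, and siETV4 replicate 1 was above siNC replicates 1 to 3. KIF14 had a log2 fold change of -0.62 (SE 0.30, 95% interval -1.28 to 0.05, edgeR adjusted p = 0.423). KIF23, the motor of the centralspindlin complex, measured 136, 96.4, 118 and 101 CPM in siETV4 libraries, against 77.8, 73.2, 67.7 and 136 CPM in siNC libraries. All siETV4 values were above siNC replicates 1 to 3, and siNC replicate 4 matched the highest of them (log2 fold change 0.35, SE 0.21, edgeR adjusted p = 0.498). KIF20A, which brings the passenger complex to the midzone, was the most abundant motor per length and measured 225, 207, 238 and 222 CPM in siETV4 libraries, against 244, 233, 239.5 and 261 CPM in siNC libraries. Only siETV4 replicate 3 reached above the lowest siNC value (log2 fold change -0.13, SE 0.08, edgeR adjusted p = 0.510). KIF11, which pushes the spindle poles apart, had 62.0 ± 16.4 CPM in siETV4 and 62.0 ± 25.3 CPM in siNC, and KIF2C, a microtubule depolymerase, had 148 ± 6.04 CPM in siETV4 and 163 ± 17.3 CPM in siNC.

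TPX2, the activator of AURKA on spindle microtubules, was the most abundant gene of the spindle group. It measured 498, 474, 488 and 523 CPM in siETV4 libraries, against 551, 513, 507 and 589 CPM in siNC libraries, and siETV4 replicate 4 overlapped the siNC range (log2 fold change -0.12, SE 0.08, edgeR adjusted p = 0.532). The other 7 had log2 fold changes from -0.11 to 0.20. They were NUSAP1 (microtubule bundling), HMMR (a hyaluronan receptor that also binds the spindle), ANLN (anillin, a scaffold of the contractile ring), PRC1 (a crosslinker of midzone microtubules), CKAP2L (a spindle protein), DLGAP5 (kinetochore fibre stability) and ASPM (spindle poles). ANLN showed the same pair of high libraries as CENPF, at 414, 248, 333 and 217 CPM in siETV4, against 228, 206, 194 and 473 CPM in siNC.

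The 2 chromosome genes are the most used markers of proliferation. TOP2A, the topoisomerase that untangles sister chromatids, measured 612, 305, 409.9 and 268 CPM in siETV4 libraries, against 289, 281, 279.7 and 698 CPM in siNC libraries. In siNC, 3 libraries differed little and replicate 4 was far above them, while the siETV4 libraries were spread from just below those 3 to near replicate 4. The log2 fold change was 0.04 with an SE of 0.33 (95% interval -0.67 to 0.76, edgeR adjusted p = 0.960). MKI67, the Ki-67 protein of mitotic chromosomes, measured 359.7, 264, 263 and 415 CPM in siETV4 libraries, against 446, 277, 342 and 500.2 CPM in siNC libraries. The groups overlapped, and siETV4 replicate 4 and siNC replicates 1 and 4 were the highest 3 (log2 fold change -0.27, SE 0.20, edgeR adjusted p = 0.573).

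**Figure D2:**
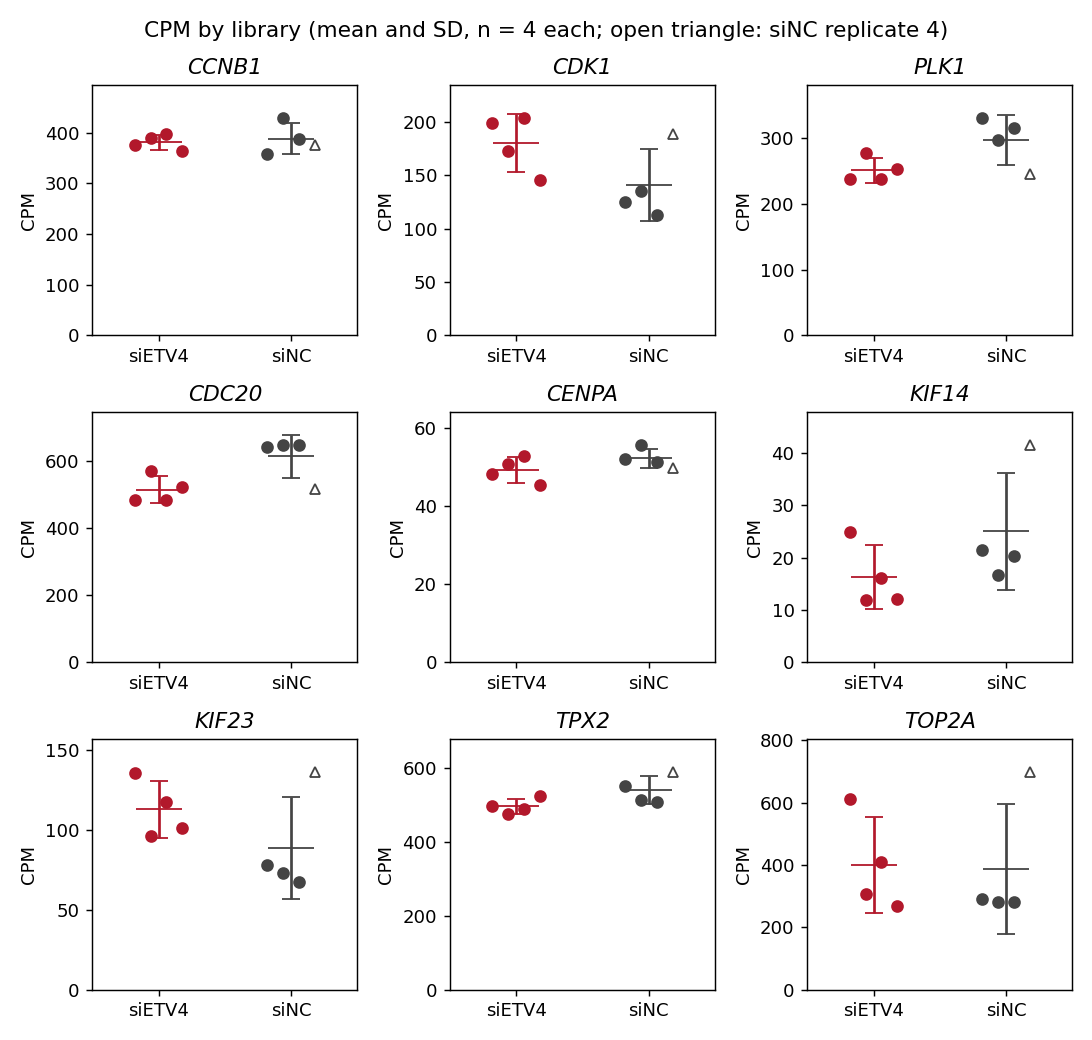
CPM of 9 of the genes in each library, siETV4 left (red) and siNC right (grey), with the mean and SD (n = 4 each); the open triangle is siNC replicate 4. For CDK1, KIF23 and TOP2A the triangle is far above the other siNC libraries (189, 136 and 698 CPM), and for PLK1 and CDC20 it is below them (245 and 517 CPM).

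Split by GC content and length, the genes fell into 3 classes. The medians of all genes tested, 48.4% GC and 4053 bases, were the limits. Long, low-GC genes numbered 9 (CENPE, CENPF, KIF11, KIF14, ASPM, CKAP2L, ANLN, TOP2A and MKI67), short, high-GC genes 8 (FOXM1, PLK1, AURKB, CDC20, UBE2C, BIRC5, KIF20A and KIF2C) and short, low-GC genes 18, with 0 long, high-GC genes. MKI67 lay just inside the low-GC side at 48.27% and KIF20A just outside at 48.42%, and by length KIF23 lay just under the limit at 3768 bases and CKAP2L over it at 4731 bases. All 8 short, high-GC genes had a negative log2 fold change, with a median of -0.18. Of the 18 short, low-GC genes, 13 were positive and 5 negative, with a median of 0.15. The 9 long, low-GC genes were 4 positive and 5 negative, with a median of -0.00065. Across the 35 genes the log2 fold change had a Spearman's rho of -0.50 with GC content and of 0.01 with length. Over all 12971 genes tested with a known GC content the rho was -0.55, so the direction by GC content was shared with the whole transcriptome. All points come from the same 8 libraries, and GC content and length were themselves related among the 35 (rho = -0.52).

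The spread between replicates differed between the classes as well. The median SE was 0.30 for the long, low-GC genes, 0.10 for the short, high-GC genes and 0.17 for the short, low-GC genes. The median coefficient of variation of the long, low-GC genes was 32.0% in siETV4 and 47.5% in siNC, and that of the short, high-GC genes 8.12% in siETV4 and 11.3% in siNC. Library by library, the median deviation of the long, low-GC genes was 0.57, -0.24, 0.12 and -0.36 (log2) in siETV4 and -0.13, -0.41, -0.22 and 0.89 in siNC. The short, high-GC genes had -0.13, 0.02, -0.15 and -0.11 in siETV4 and 0.09, 0.19, 0.18 and -0.13 in siNC. The short, low-GC genes had 0.30, -0.01, 0.28 and -0.10 in siETV4 and -0.16, -0.22, -0.35 and 0.33 in siNC. For all 9 long, low-GC genes siNC replicate 4 was the highest of the 8 libraries, and for 7 of the 8 short, high-GC genes it was the lowest of the siNC libraries. Among the 18 short, low-GC genes it was the highest siNC library in 13 and the lowest in 2. In 8 of the 9 long, low-GC genes siETV4 replicate 1 was the highest siETV4 library. Their part in the fold changes was measured by the fits below and not otherwise tested.

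**Figure D3:**
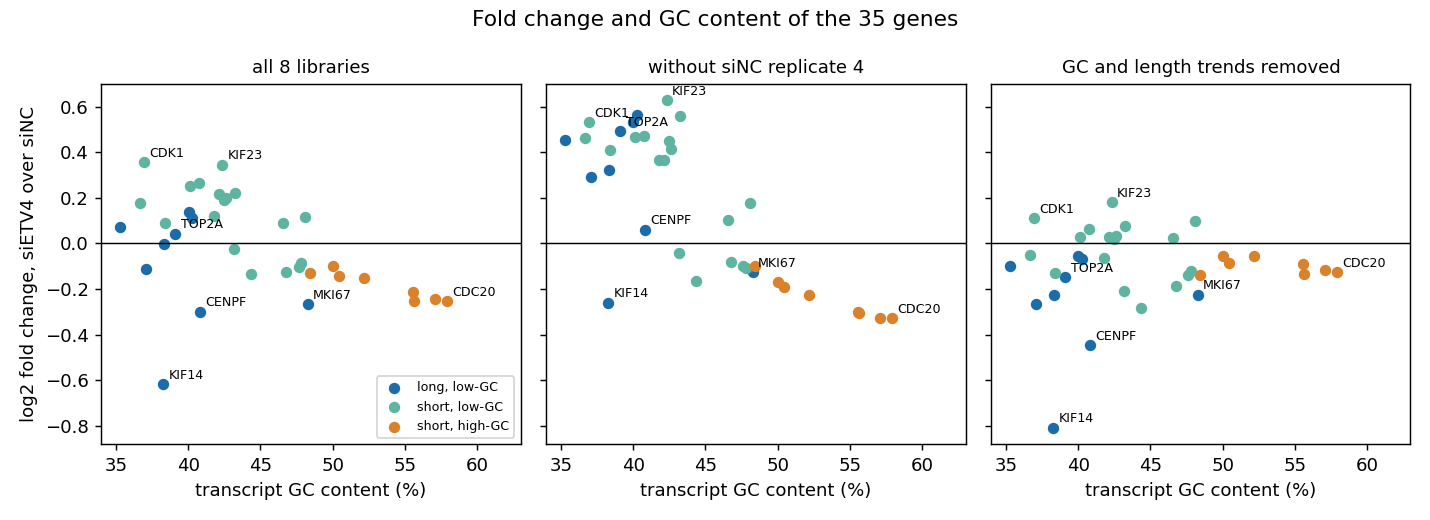
Log2 fold change (siETV4 over siNC) of the 35 genes against transcript GC content in percent, coloured by class, in 3 fits: all 8 libraries, without siNC replicate 4, and with each library's trends on GC content and length removed. Spearman's rho over the 35 genes is -0.50, -0.72 and -0.03 in this order, and KIF14 lies lowest in the left and right panels. The last rho follows largely from the removal of the GC content trend.

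Without siNC replicate 4, 12 of the 35 genes were called (34.3%), against 16.9% of 13783 genes tested. Of them, 8 were higher in siETV4 (22.9%, against 12% of all genes), and these were KIF23, CDK1, BUB1B, TTK, BUB1, CCNA2, NDC80 and NUSAP1. The other 4 were lower (11.4%, against 4.88% of all genes), and these were CDC20, PLK1, AURKB and FOXM1. The 8 were all short, low-GC genes and the 4 were all short, high-GC genes. The largest of the 8 were KIF23, at a log2 fold change of 0.63 (edgeR adjusted p = 0.00901), BUB1B at 0.56 (edgeR adjusted p = 0.0266) and CDK1 at 0.53 (edgeR adjusted p = 0.0149). On the other side CDC20 and PLK1 had -0.33 each (edgeR adjusted p = 0.0230 and 0.0254). The median of the 35 was 0.18, against -0.02 over all genes, and the class medians were 0.32 for long, low-GC, -0.26 for short, high-GC and 0.39 for short, low-GC genes. Without that library the groups did not overlap in 7 genes that were higher and 5 that were lower, against 28.7% of all genes (15.8% higher and 12.9% lower). The relation with GC content was stronger in this fit, with a rho of -0.72 over the 35 and of -0.66 over 13123 genes. In the libraries left, every siNC library lay above every siETV4 library in its relation with GC content. That trend and the siRNA therefore cannot be told apart in this fit. Leaving out any other library called 0 of the 35.

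**Figure D4:**
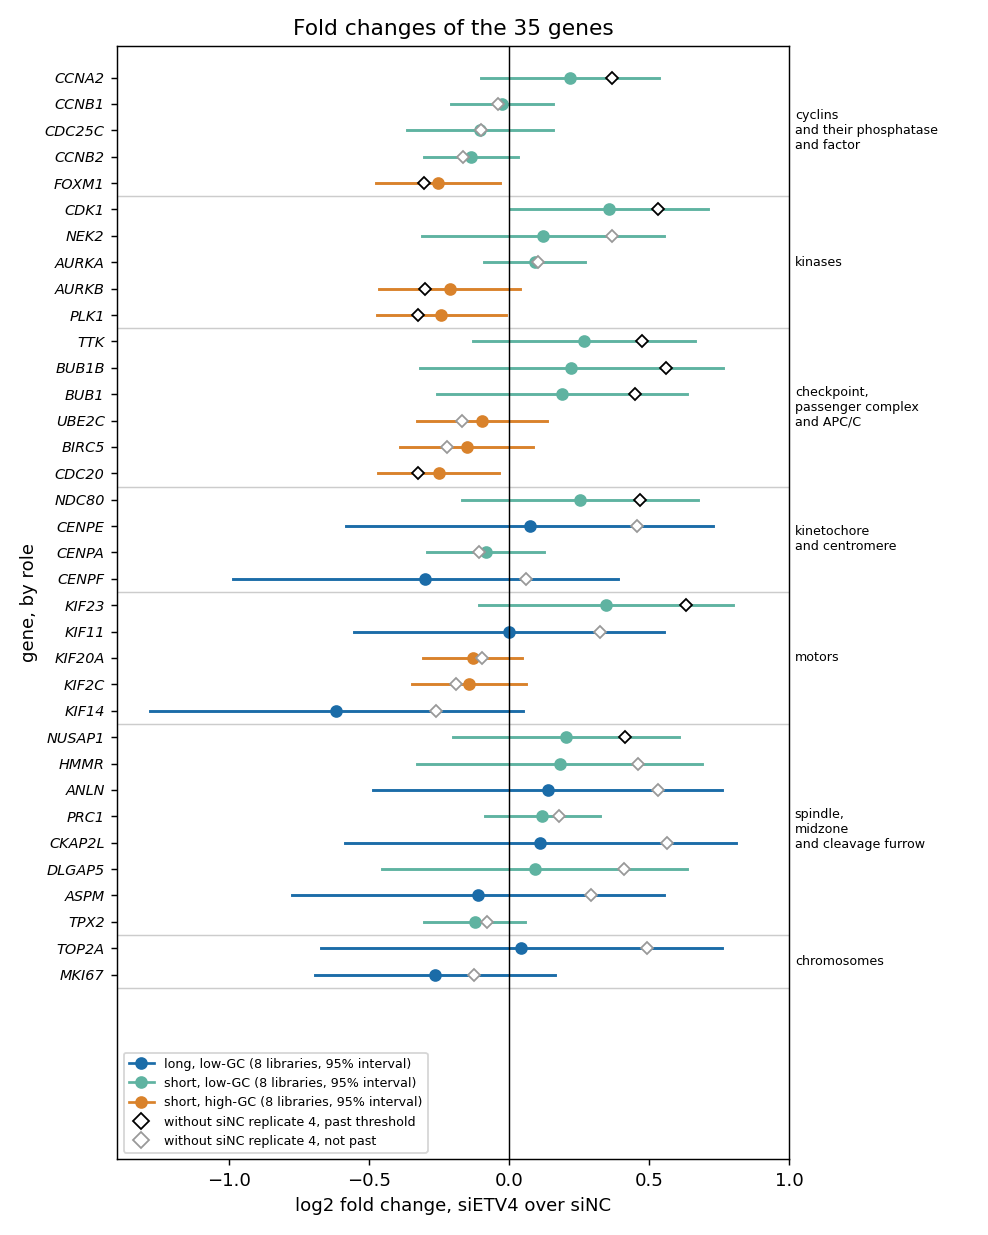
Log2 fold change of each gene by role, siETV4 over siNC, as filled circles with 95% intervals from all 8 libraries, coloured by class; diamonds are the values without siNC replicate 4, black where the edgeR adjusted p was under 0.05. The black diamonds are 8 short, low-GC genes on the right and 4 short, high-GC genes on the left, and most long, low-GC genes have wide intervals (median SE 0.30).

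With the trends of each library on GC content and length removed, 1 of the 35 genes passed, against 1.73% of 12971 genes (0.863% lower). It was KIF14 (chr1:200551497-200620751), lower in siETV4 with a log2 fold change of -0.81 (edgeR adjusted p = 0.0148). KIF14 remained lower without siNC replicate 4 in this fit (-0.72, edgeR adjusted p = 0.00776), whereas without that library and with the trends kept it had -0.26 (edgeR adjusted p = 0.409). With all libraries and the trends kept, its edgeR adjusted p was 0.423. The offsets were fitted without regard to group, while the GC content trend was partly aligned with the groups. They can therefore take away or add a difference between the groups. The median of the 35 was -0.09 with the trends removed, against -0.003 over all genes, and 10 genes were positive and 25 negative. Over all genes in this fit, 6401 were positive and 6570 negative. All 9 long, low-GC genes were then negative (median -0.22), as were all 8 short, high-GC genes (median -0.10), and the short, low-GC genes had a median of 0.02. The genes were measured in the same libraries, so their signs are not independent observations. The rho between log2 fold change and GC content was -0.03. The offsets take out each library's trend on GC content, so this weak relation follows largely from the method. Leaving out siNC replicate 4 as well, 4 of the 35 passed (11.4%), against 6.46% of 13123 genes. Over all genes 2.93% were higher and 3.53% lower. KIF23 was higher (0.31, edgeR adjusted p = 0.0223), and CCNB1 (-0.29, edgeR adjusted p = 0.0152), CCNB2 (-0.35, edgeR adjusted p = 0.0103) and KIF14 were lower. Of the 12 genes called without siNC replicate 4 and with the trends kept, KIF23 alone was among these 4. The median deviation of the long, low-GC genes in siNC replicate 4 was 0.44 with the trends removed, against 0.89 before.

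The fold changes were also set beside the promoter motifs. With all 8 libraries, the 14 genes with a CHR core and a CCAAT had a median log2 fold change of 0.02 and the other 15 genes had one of 0.07. Without siNC replicate 4 these medians were 0.31 and 0.37. The 7 genes with a CCGGAA had a median of -0.03 and the 22 without it 0.09, and without siNC replicate 4 the values were -0.04 and 0.37. No medians by motif were taken with the trends on GC content and length removed, so the gap in that setting is not known. There the 35 genes ran from -0.81 (KIF14) to 0.18 (KIF23), and both of these genes have a CCGGAA. The differences between the medians given were not tested.

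A further 119 genes of the same pathways, all tested, were examined in the same way. They cover control of cyclin-dependent kinases (14), the checkpoint and passenger complex (10), kinetochore and centromere (28), motors and spindle (15), APC/C and separase (18), condensin and cohesin (14), cytokinesis (7) and the regulators DREAM, MuvB and E2F (13). With all 8 libraries 0 of the 119 passed edgeR's test, with 73 positive, 46 negative and a median of 0.09. Over all genes tested, 6568 were positive and 7004 negative. At an unadjusted p under 0.05 there were 8 higher and 13 lower, against 5.8% higher and 6.79% lower of all genes. Without siNC replicate 4 that count was 52 higher and 25 lower, against 21% and 14% of all genes, and with the trends removed 6 higher and 15 lower, against 7.69% and 8.09% of all genes. The median was 0.22 without siNC replicate 4 and -0.03 with the trends removed. DESeq2 called E2F5 higher (adjusted p = 0.00977) and ESPL1 lower (adjusted p = 0.0307). Without siNC replicate 4, 27 were higher and 8 lower (29.4% in all, against 16.9% of all genes). With the trends removed 0 were higher and 3 were lower (ESPL1, SMC1A and CDC25B), which is 2.52%, against 1.73% of all genes.

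In 9 of the 119 genes, 2 higher and 7 lower, the groups did not overlap (7.56%, against 6.55% of all genes, with 2.62% higher and 3.93% lower). The 3 with the smallest p are among these 9. ESPL1, the separase that cuts cohesin at anaphase, measured 70.3, 73.7, 63.5 and 83.2 CPM in siETV4 libraries, against 114, 94.4, 104 and 93.3 CPM in siNC libraries. The log2 fold change was -0.48 (SE 0.11, edgeR adjusted p = 0.134), and with the trends removed -0.34 (edgeR adjusted p = 0.0255). CDC25B, a phosphatase that starts CDK1 activation, measured 213, 220.0, 200.1 and 238 CPM in siETV4 libraries, against 324, 295, 286 and 249.9 CPM in siNC libraries. CDC25B had a log2 fold change of -0.41 (SE 0.10, edgeR adjusted p = 0.154), and with the trends removed -0.27 (edgeR adjusted p = 0.0425). E2F5, an E2F factor of the repressive DREAM complex, measured 10.3, 10.1, 8.93 and 9.20 CPM in siETV4 libraries, against 6.56, 6.12, 6.50 and 7.10 CPM in siNC libraries. E2F5 had a log2 fold change of 0.55 (SE 0.13, edgeR adjusted p = 0.149), and with the trends removed 0.29 (edgeR adjusted p = 0.346).

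Of the 35 genes, 10 overlap another counted gene on the genome: CCNA2 with EXOSC9, CDC25C with FAM53C and LOC100128966, FOXM1 with ITFG2 and RHNO1, PLK1 with ERN2, BUB1B with LOC107984763, KIF20A with CDC23, KIF23 with KIF23-AS1, HMMR with HMMR-AS1, PRC1 with PRC1-AS1 and CKAP2L with NT5DC4. E2F5 likewise overlaps RBIS. The sources used here do not say whether the counting used strand, so reads in the shared stretches cannot be assigned with certainty.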

How the data were processed

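The authors deposited raw counts per gene symbol for 8 libraries and FPKM values for the same symbols. Per the submitters' processing notes, the build was hg38 and R 3.2.0 was used; the sources used here do not give the aligner, counter, annotation or use of strand. The deposited FPKM values equal count over library total and a gene length, constant over libraries for 20584 of 20585 genes within a relative tolerance of 1e-06. No pair of libraries was alike (lowest chi-square per degree of freedom 10.4). For siNC replicate 4 this value was 19.8, 92.8, 39.1 and 52.5 against siETV4 replicates 1 to 4. Against siNC replicates 1 to 3 it was 90.7, 111 and 117, and the reason was not tested.

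The 35 genes and all lists were chosen with earlier results of these data known. In R 4.3.3, edgeR 4.0.16 kept 13572 genes by filterByExpr (minimum count 10), scaled libraries by TMM and tested siETV4 against siNC with glmQLFTest and Benjamini-Hochberg adjustment over all genes; a call is an adjusted p under 0.05. Positive log2 fold changes are higher in siETV4. CPM uses the TMM-scaled library size, and levels between genes are compared as FPKM only. GC content is that of the longest GENCODE v29 transcript and length is that implied by the FPKM; 12971 tested genes (95.6%) had both. Offsets removed each library's spline trend (5 degrees of freedom) on both. Promoters are RefSeq GRCh38.p14, the assembly of hg38. Alternatives were RLE factors, library size alone, other filters, DESeq2 1.42.0, limma-voom and limma-trend on FPKM (limma 3.58.1), a replicate block, a threshold of 0.1 and each library left out. The tests were tried on simulated counts with known changes. Those counts held no trend on GC content or length and no deviant library. They therefore do not check how the offsets, or leaving out a library, deal with such features.

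Values per library are given for the most abundant gene per role, the 4 smallest p, the 3 highest and 3 lowest fold changes and genes past the threshold. The remaining genes are given by mean or fold change. Of the other mitosis genes those past the threshold, otherwise the 3 with the smallest p, are named. ANLN's values per library were added after they were seen, as were the names of genes called by an alternative. Libraries held 35057643 to 41657753 counts each. Values after ± are SDs between replicates, and an SE is that of a fitted log2 fold change.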

Additional observations from a re-analysis of the deposited data

Results flagged for a closer look

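Among the 78 groups of 4 libraries checked (the 35 genes, ETV4 and 3 other genes, each in siETV4 and in siNC), 9 held a library far from the other 3 by Dixon's criterion, which chance meets in about 1 in 20 groups. The groups come from the same libraries and are not independent, so this rate cannot measure an excess among them. In siETV4, the highest AURKB value was 205 CPM in replicate 2, with the others at 169 to 172 CPM. In siNC, the lowest AURKA value was 168 CPM in replicate 1, with the others at 188 to 190 CPM. The other 7 were all siNC replicate 4. Its TOP2A value was 698 CPM, with the others at 280 to 289 CPM, its ANLN value was 473 CPM, with the others at 194 to 228 CPM, and its KIF23 value was 136 CPM, with the others at 67.7 to 77.8 CPM. In the same library KIF11 was at 99.5 CPM, with the others at 43.9 to 52.4 CPM, BUB1B at 85.6 CPM, with the others at 38.4 to 45.1 CPM, and NEK2 at 54.3 CPM, with the others at 29.5 to 32.7 CPM. CDC20 was the opposite case, at 517 CPM in siNC replicate 4, with the others at 644 to 649 CPM. The GC content trend of this library was opposite to that of the other siNC libraries (rho = -0.58, against 0.52 to 0.62), and its part in these values was not tested gene by gene.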

How the results depend on the processing

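ETV4 was lower and past the threshold in every setting run. The medians of the 35 genes, of the long, low-GC class and of the short, high-GC class moved by less than the spread of the library medians in every setting. That spread (pooled SD 0.23, 0.51 and 0.12 in this order) includes siNC replicate 4, so the comparison cannot show that the medians are stable. Without siNC replicate 4 they went from -0.00065, -0.00065 and -0.18 to 0.18, 0.32 and -0.26. The median of the short, low-GC class was 0.15, 0.39 without siNC replicate 4 and 0.02 with GC content and length offsets, and was not set against that spread. The count of genes called among all genes, 32 with edgeR and TMM factors, was 54 with no filter, 167 with DESeq2, 59 with FPKM at either pseudocount and the mean filter, 60 at a threshold of 0.1, 225 with GC content and length offsets, and 848 with these offsets and siNC replicate 4 left out. Leaving out 1 library gave 9 to 2327, and siNC replicate 4 was the library behind the highest count. Among the 35 genes, 0 with edgeR and TMM factors, the count was 1 with the offsets (KIF14), 4 with the offsets and siNC replicate 4 left out, and 0 to 12 when 1 library was left out, 12 without siNC replicate 4 only. The cause of the change without that library was not tested.

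Deviations of same-numbered libraries, over all genes tested, correlated at -0.08, 0.25, -0.12 and -0.16 for replicates 1 to 4. Only for siETV4 replicate 2 was the same-numbered siNC library the one with the highest correlation. The GC content trends are part of these deviations, so the correlations cannot show whether same-numbered cultures shared a batch. MKI67 was lower in siETV4 for every replicate number, and its SE was 0.20 without and 0.09 with the block (edgeR adjusted p = 0.472 with it). The fit with the replicate number as a block called 4 genes of all and 0 of the 35, and the offsets with the replicate block called 103 of all and 1 of the 35, again KIF14 (log2 fold change -0.82, edgeR adjusted p = 0.0428). Among genes not called, 7 changed sign with the offsets (NEK2, CENPE, DLGAP5, HMMR, CKAP2L, ANLN and TOP2A), and 0 to 5 when 1 library was left out.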
